A study of Mus musculus with 12 samples.

Results

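The light and medium neurofilament genes Nefl and Nefm, the neural progenitor genes Nes, Pax6 and Sox1, and the neuronal genes Tubb3, Map2 and Ncam1 were followed in mouse embryonic stem cells with and without a mutant Tinf2 gene. The set was drawn up by name, as 9 symbols known from neural lineages, and 8 of them had counts among the 31641 gene symbols of the table. Dcx, the ninth, was not analysed here. The product of Tinf2, TIN2, belongs to shelterin, the protein complex that covers telomeres. The labels give the mutant genotype as Tin2 S341X, and the series asks about telomere maintenance and differentiation in such cells.

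RNA was sequenced from 2 mutant lines, Mut-1 and Mut-2 (Tin2 S341X), and from WT-1 and WT-2, a pair of wild-type lines, with 3 libraries per line and 12 in all. All 4 lines were derived from C57BL/6 blastocysts and were kept in serum and LIF, a cytokine that maintains pluripotency, on feeder layers of mouse embryonic fibroblasts. No differentiation treatment is named for any of them, so the values describe maintained stem cell cultures. The 3 libraries of a line are described in the series as technical replicates, and each genotype is represented by 2 lines. Values are read counts per gene, given below as CPM, the counts scaled to a common library size after TMM normalization. Library totals lay between 14766477 and 17891894 counts. WT-1 replicates 1 and 2 were closer to each other than any other libraries of a line, with a chi-square per degree of freedom of 1.62, against 10.9 to 38.4 elsewhere within lines, and both were kept.

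Tinf2 itself, on chromosome 14, was read as a check of the labels. It had 29.8, 25.2 and 20.1 CPM in the Mut-1 libraries and 30.1, 27.5 and 19.7 CPM in those of Mut-2, against 69.2, 64.9 and 57.7 CPM in those of WT-1 and 64.0, 58.8 and 60.6 CPM in those of WT-2. No mutant library reached the wild-type range, and the log2 fold change over line totals was -1.30, with an adjusted p of 0.0652 in edgeR's quasi-likelihood test.

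Neurofilaments are the intermediate filaments of neurons. The light chain can assemble with the medium and heavy chains, and the filaments set the calibre of axons. Nestin, the intermediate filament product of Nes, marks dividing neural progenitors, in which the transcription factors Sox1 and Pax6 also act, while beta-III tubulin and MAP2 belong to the microtubules of neurons. Pluripotent cells hold most such genes at low levels, and their transcripts can appear when cells begin to differentiate.

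Nefl and Nefm lie side by side on mouse chromosome 14 (GRCm38, GENCODE M21). Nefl is on the plus strand at chr14:68083863-68089095 with 4 exons, and Nefm is on the minus strand at chr14:68082590-68124846. Their start sites are 41.0 kb apart. The longer span of Nefm comes from transcript Nefm-202, whose exon 4 lies at 68082590 to 68084970 and covers 1108 bases of exon 1 of Nefl on the other strand, which is 32.8% of the 3380-base Nefl transcript. No strand setting is given in the sources used here, so reads from this overlap cannot be assigned to one gene or the other with certainty.

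Nefl and Nefm had the highest mutant-to-wild-type ratios of the 8 genes, with fitted fold changes of 1.76 and 1.96, and neither passed the test at the level of lines. Nefl had 16.0, 21.4 and 31.3 CPM in the Mut-1 libraries and 12.6, 18.6 and 26.3 CPM in those of Mut-2, against 10.8, 11.3 and 16.5 CPM in those of WT-1 and 8.51, 11.1 and 12.1 CPM in those of WT-2. Of the 6 mutant libraries, 4 lay above every wild-type library, and the 2 lowest, replicate 1 of each mutant line, fell within the wild-type range. Over line totals Nefl averaged 20.7 ± 2.76 CPM in mutant lines and 11.8 ± 1.77 CPM in wild-type lines (SD, n = 2 each). The log2 fold change was 0.81 ± 0.176 (SE), with an unadjusted p of 0.00176 and an adjusted p of 0.181 in edgeR's quasi-likelihood test with Benjamini-Hochberg adjustment. In bulk cultures, more cells of a type and more RNA per cell cannot be told apart.

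Nefm, the medium chain, had 2.18, 5.93 and 5.59 CPM in the Mut-1 libraries and 4.35, 7.76 and 8.65 CPM in those of Mut-2, against 2.22, 3.08 and 3.31 CPM in those of WT-1 and 1.81, 2.91 and 3.90 CPM in those of WT-2. Here 5 mutant libraries stood above all wild-type libraries, and replicate 1 of Mut-1 was below 5 of the 6 wild-type libraries. The mean was 5.63 ± 1.66 CPM in mutant lines and 2.87 ± 0.0356 CPM in wild-type lines (SD, n = 2 each). The fitted log2 fold change was 0.97 ± 0.258, with an unadjusted p of 0.00558 and an adjusted p of 0.228 (edgeR). These values rest on 537 counts in the mutant libraries together and 287 in the wild-type ones, while Nefl had 1976 and 1182. The heavy chain gene Nefh did not share the direction: its mean was 15.6 ± 3.06 CPM in mutant lines and 18.3 ± 2.23 CPM in wild-type lines, with a log2 fold change of -0.23 and an adjusted p of 0.631.

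**Figure D1:**
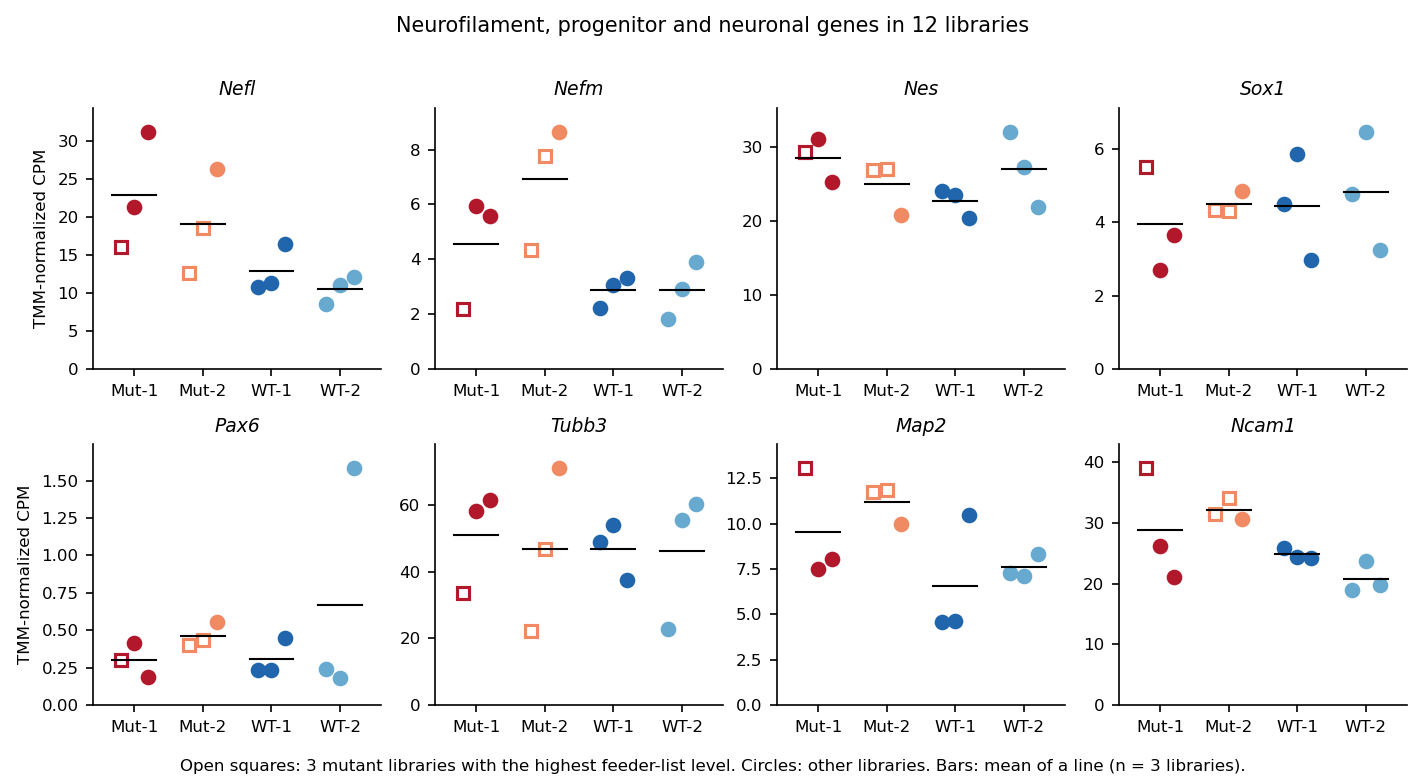
TMM-normalized CPM of the 8 counted genes in each library, by line, with a horizontal bar at the mean of a line's 3 libraries and each panel on its own scale from 0. Open squares are the 3 mutant libraries with the highest feeder-list level. The 3 highest values of Nefl are mutant libraries drawn as circles, Nefm has circles and squares mixed, and the 3 highest values of Map2 are squares.

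Among the progenitor genes, none showed a difference beyond the spread between lines. Nes had 29.3, 31.1 and 25.3 CPM in the Mut-1 libraries and 26.9, 27.0 and 20.8 CPM in those of Mut-2, against 24.0, 23.6 and 20.4 CPM in those of WT-1 and 32.1, 27.2 and 21.9 CPM in those of WT-2. The groups overlapped over nearly their whole range, and the highest and the lowest library were both wild type. Means were 26.7 ± 2.12 CPM in mutant lines and 25.0 ± 3.14 CPM in wild-type lines, with a log2 fold change of 0.09 ± 0.145 and an adjusted p of 0.823 (edgeR, n = 2 lines each). Nes is on chromosome 3 at 87971078 to 87980451.

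Sox1, which encodes a transcription factor of the early neural plate, lies on chromosome 8 at 12395295 to 12400126. It had 5.51, 2.69 and 3.66 CPM in the Mut-1 libraries and 4.35, 4.32 and 4.85 CPM in those of Mut-2, against 4.51, 5.86 and 2.97 CPM in those of WT-1 and 4.77, 6.48 and 3.24 CPM in those of WT-2. The lowest library was a mutant one and the 2 highest were wild type, with overlap throughout. Its log2 fold change of -0.14 ± 0.208 had an adjusted p of 0.818 (edgeR). Pax6, a paired-box gene of the neural tube and eye on chromosome 2 at 105668900 to 105697364, was at the edge of detection. It had 5, 6 and 3 counts in Mut-1 and 7, 7 and 8 in Mut-2, against 4, 4 and 8 in WT-1 and 4, 3 and 24 in WT-2. One wild-type library, WT-2 replicate 3, stood at 1.59 CPM, and the other 11 lay between 0.178 and 0.554 CPM. The line means were 0.377 ± 0.118 CPM in mutant lines and 0.475 ± 0.232 CPM in wild-type lines, with a log2 fold change of -0.32 ± 0.474 and an adjusted p of 0.815 (edgeR). Without WT-2 replicate 3 the log2 fold change was 0.50 (adjusted p 0.700), so that 1 library set its sign. At this depth a difference in Pax6 was not detectable.

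Tubb3, on chromosome 8 at 123411424 to 123422015, varied widely between libraries of a line. It had 33.6, 58.2 and 61.5 CPM in the Mut-1 libraries and 22.2, 46.9 and 71.2 CPM in those of Mut-2, against 49.0, 54.0 and 37.6 CPM in those of WT-1 and 22.8, 55.6 and 60.4 CPM in those of WT-2. Within Mut-2 and within WT-2 the libraries spanned most of the range of all 12, so the genotypes overlapped almost fully. Line means were 47.8 ± 3.45 CPM in mutant lines and 46.5 ± 0.802 CPM in wild-type lines, with a log2 fold change of 0.04 ± 0.114 and an adjusted p of 0.912 (edgeR, n = 2 lines each).

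Map2, whose product stabilises dendritic microtubules, lies on chromosome 1 at 66175273 to 66442583. It had 13.1, 7.52 and 8.07 CPM in the Mut-1 libraries and 11.7, 11.8 and 9.97 CPM in those of Mut-2, against 4.57, 4.62 and 10.5 CPM in those of WT-1 and 7.30, 7.13 and 8.33 CPM in those of WT-2. In 3 mutant libraries it was above every wild-type library, and the other 3 mixed with WT-1 replicate 3 and with WT-2. The means of 10.4 ± 1.20 CPM in mutant lines and 7.11 ± 0.637 CPM in wild-type lines gave a log2 fold change of 0.55 ± 0.185, with an unadjusted p of 0.0182 and an adjusted p of 0.292 (edgeR).

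Ncam1, on chromosome 9 at 49502136 to 49798925, encodes a cell adhesion molecule of neurons, glia and muscle. It had 39.1, 26.2 and 21.2 CPM in the Mut-1 libraries and 31.5, 34.1 and 30.7 CPM in those of Mut-2, against 25.9, 24.4 and 24.2 CPM in those of WT-1 and 19.0, 23.8 and 19.8 CPM in those of WT-2. All libraries of Mut-2 and 2 of Mut-1 exceeded every wild-type library, and replicate 3 of Mut-1 lay within the wild-type range. Line means were 30.5 ± 2.47 CPM in mutant lines and 23.0 ± 2.92 CPM in wild-type lines, with a log2 fold change of 0.41 ± 0.144, an unadjusted p of 0.0226 and an adjusted p of 0.308 (edgeR).

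Of the 8 genes, 6 had higher and 2 lower fitted levels in mutant lines, with a median log2 fold change of 0.251. Over all 18749 genes tested, 49.82% were higher and the median was -0.00158. None of the 8 passed an adjusted p under 0.05, and among all genes tested the share called was 0% (edgeR on line totals). Nefl, Nefm, Map2 and Ncam1 had an unadjusted p under 0.05, which 2447 genes or 13.1% of all tested genes also had. DESeq2 on the same line totals called Nefl (adjusted p 0.00510) and Nefm (adjusted p 0.0478), and it called 359 genes in all (1.91%). In no gene of the 8 were all 6 mutant libraries above or all 6 below the wild-type libraries, as was the case for 1.33% and 0.645% of all tested genes.

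Levels were compared between genes only per kilobase of annotated exon, as means over the 12 libraries. Tubb3 led at 25.6 CPM per kb, and its lowest library, at 11.9, was above the highest of any other gene. Nefl (4.85), Nes (4.02) and Ncam1 (3.08 CPM per kb) followed, and neighbours in this order overlapped between libraries. Sox1 (0.917), Nefm (0.745) and Map2 (0.530 CPM per kb) formed the next overlapping run. Pax6 was last at 0.0372 CPM per kb and did not overlap Map2. Per length, Nefm stood at 15.4% of the level of Nefl. Its summed exon length of 5782 bases includes the 2381-base exon 4 of Nefm-202, which Nefm-201 lacks. Which transcript was present was not measured. If it was mostly Nefm-201, the value of Nefm per kb is too low and its place in the order is uncertain. Reads from the overlap of that exon with Nefl add to this uncertainty for both genes. For genes with many annotated isoforms, such as Map2 with 24 transcripts and Pax6 with 26, summed exon length overstates the length of a typical transcript and lowers the value per kb.

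Mut-1 was set against WT-1 and Mut-2 against WT-2 in 1 edgeR fit of the 12 libraries, whose p-values measure only the spread among libraries of a line. Between Mut-1 and WT-1 the log2 fold change was 0.83 ± 0.294 for Nefl and 0.67 ± 0.402 for Nefm. Of the 7 genes that passed the filter on low counts, all but Pax6, 6 were higher in Mut-1, none was called, and the smallest adjusted p was 0.356, beside 0.327% of all genes called. Between Mut-2 and WT-2 the log2 fold change was 0.86 ± 0.297 for Nefl, 1.27 ± 0.401 for Nefm and 0.62 ± 0.190 for Ncam1. Their adjusted p-values were 0.188, 0.151 and 0.140, again with none of the 7 called, beside 0.925% of all genes. Libraries with the same number deviated together in Mut-2 and WT-2, though only weakly for replicate 3 (correlation 0.106). A block on the library number is shared by all lines in the fit, and in Mut-1 and WT-1 same-number libraries did not all deviate together. With the library number as a block, Nefl (adjusted p 0.0281) and Nefm (adjusted p 0.0231) were called higher in Mut-2, and 1.98% of all genes were called in that fit.

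Map2 had a log2 fold change of 0.54 between Mut-1 and WT-1 and 0.56 between Mut-2 and WT-2, Sox1 had -0.16 and -0.10, and Tubb3 0.13 and 0.01. Single libraries moved the first of these for Map2: it was 1.06 without WT-1 replicate 3 (adjusted p 0.0506), 0.25 without Mut-1 replicate 1, and 0.34 without either WT-1 replicate 1 or WT-1 replicate 2. Between Mut-1 and WT-1, Nefl had 0.52 without Mut-1 replicate 3, and Nefm had 0.42 without Mut-1 replicate 2. Between Mut-2 and WT-2, Nefl had 0.56 without Mut-2 replicate 3. Nes, at 0.33 and -0.12, and Ncam1, at 0.21 and 0.62, were further apart. Without the feeder-rich libraries, which leaves 1 library of Mut-2 that is assumed to vary like the others, Nefl had 1.03 in the first pair and 1.30 in the second, and Nefm had 1.002 and 1.58, with none called (adjusted p 0.213, 0.219, 0.405 and 0.236, edgeR).

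**Figure D2:**
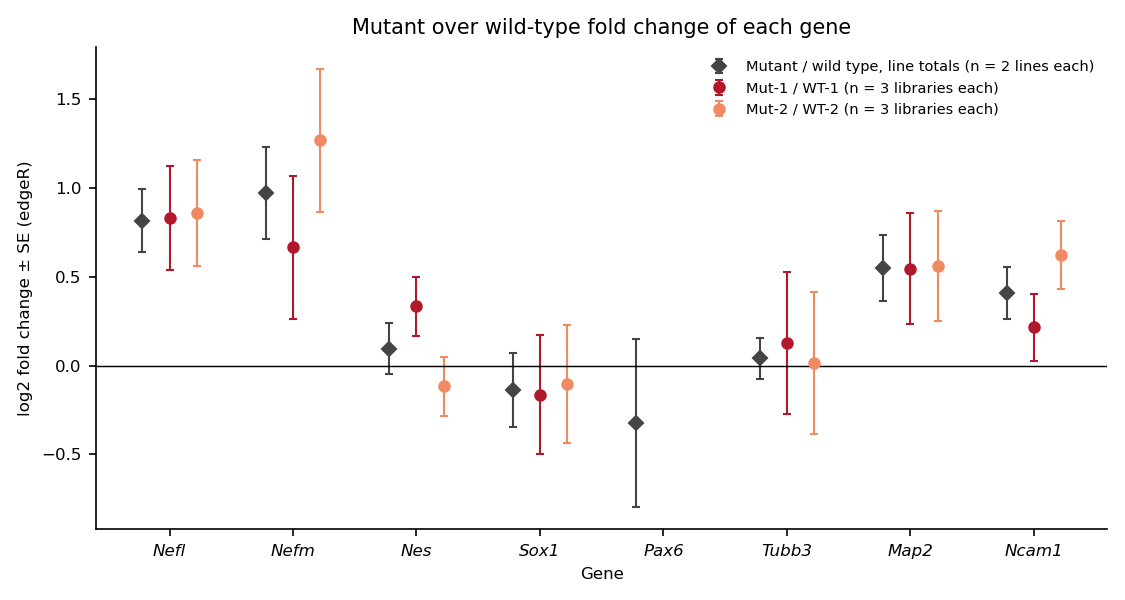
Log2 fold change with its SE for each gene, from the line totals (diamonds) and from the 2 pairs of lines (circles), mutant over wild type. Nefl and Nefm lie above 0 in all 3 comparisons, Nes lies at 0.33 in the first pair and -0.12 in the second, and Pax6 has no value in the pairs.

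The difference between the pairs was tested as an interaction. No label pairs the lines by number, and same-numbered mutant and wild-type lines did not deviate together (correlation -0.067). The values below therefore depend on which lines were set against each other. The second pair's log2 fold change exceeded the first's by 0.03 for Nefl (adjusted p 0.990), by 0.60 for Nefm (adjusted p 0.772) and by 0.41 for Ncam1 (adjusted p 0.697), so that no difference between the pairs passed the test (edgeR). Nes had the smallest unadjusted p, 0.0754, for values of opposite sign. Lines of the same genotype were compared too. Between Mut-2 and Mut-1 none of the 7 genes was called, with a smallest adjusted p of 0.821, beside 0.26% of all genes. Between WT-2 and WT-1 none was called either, with a smallest adjusted p of 0.756, beside 0.0181% of all genes (edgeR). For Nefm the log2 fold change between Mut-2 and Mut-1 was 0.60, close to the 0.67 between Mut-1 and WT-1. These pairs share lines with one another, and so are not independent.

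Nefl and Nefm share a chromosome with Tinf2, and its genes were mostly higher in mutant lines. Among 396 chromosome 14 genes of a mean of at least 5 CPM, 385 (97.2%) had a fitted log2 fold change above 0, with a median of 0.365 and quartiles of 0.249 and 0.506. The 17568 tested genes with a position on other chromosomes, taken without a CPM minimum, had a median of -0.01. Nefl exceeded the chromosome 14 median by 0.449 on the log2 scale, and 11 of these genes had a larger fold change than Nefl. Nefm, whose own mean of 4.31 CPM is below the minimum and which is not among the 396, exceeded it by 0.606, with 6 genes larger.

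Close to the locus the picture was alike. Within 5 Mb of the Nefl start, 56 of 60 such genes were higher in mutant lines, with a median log2 fold change of 0.423, and 3 exceeded Nefl. The 5 tested genes next to the pair on the Nefl side were Dock5 (log2 fold change 0.45), Gnrh1 (0.30), Kctd9 (0.40), Cdca2 (0.20) and Ebf2 (0.54). On the Nefm side they were Stc1 (0.58), Nkx3.1 (0.45), Slc25a37 (0.29), Entpd4b (-0.04) and Loxl2 (0.48). None of these 10 passed the adjusted threshold, and neither did any other gene tested on line totals (edgeR). Of the 10, 9 were higher in mutant lines but below Nefl and Nefm. The chromosome's median was 0.327 between Mut-1 and WT-1 and 0.430 between Mut-2 and WT-2, and Nefl exceeded it by 0.502 and 0.425. Nefm exceeded it by 0.338 in the first pair and by 0.836 in the second. These values depend on which lines were set against each other. With each mutant line set against both wild-type lines together, the excess of Nefl was 0.613 in Mut-1 and 0.236 in Mut-2. That of Nefm was 0.246 in Mut-1 and 0.694 in Mut-2. How much of the neurofilament difference goes with the chromosome-wide one was not tested. The 6 genes of the set on other chromosomes had a median log2 fold change of 0.07, with 4 higher, and a smallest adjusted p of 0.292.

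**Figure D3:**
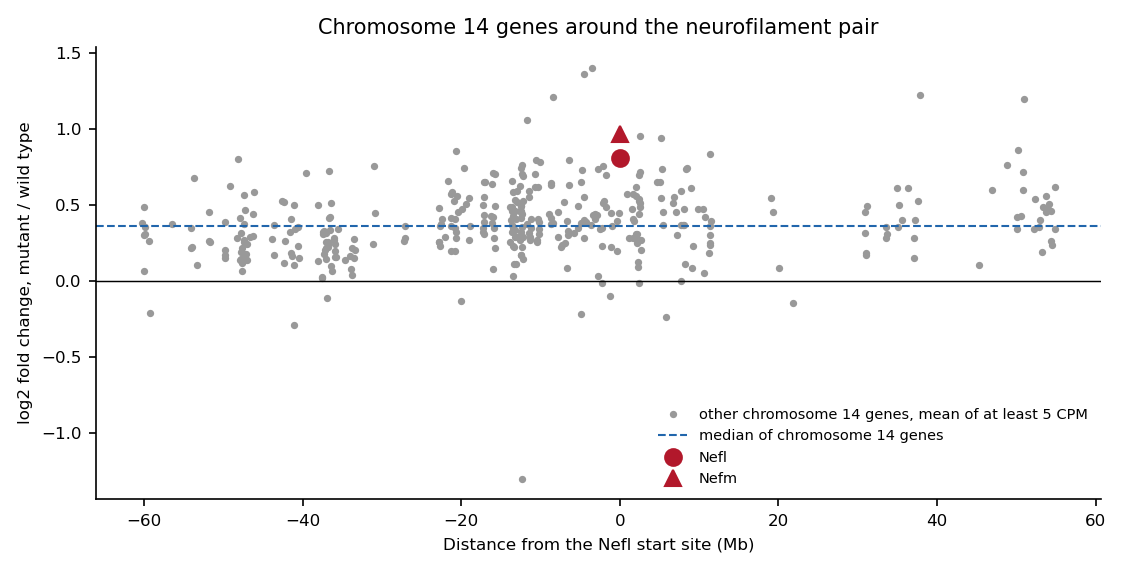
Log2 fold change, mutant over wild type on line totals, of chromosome 14 genes of a mean of at least 5 CPM against the distance of their start from the Nefl start in Mb. The dashed line is the median of 0.365. Nefl (circle) and Nefm (triangle, below the minimum of 5 CPM), at 0.81 and 0.97, lie in the upper part of a cloud that is shifted above 0 along the chromosome.

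RNA of the feeder layer differed between libraries. The 34 measured fibroblast markers summed to between 11330 and 21985 CPM in the 6 mutant libraries and to between 9843 and 13448 CPM in the 6 wild-type libraries, and no marker was at 0 in all libraries. In 3 mutant libraries, Mut-1 replicate 1 and Mut-2 replicates 1 and 2, the sum was 18934 to 21985 CPM, above every wild-type library. The other 3 mutant libraries, at 11330 to 12947 CPM, lay inside the wild-type range. All 34 markers had higher fitted levels in mutant lines, with a median log2 fold change of 0.58. None was called, as was no gene of all tested, and 32 had an unadjusted p under 0.05 (edgeR), beside 13.1% of all tested genes. The part of feeder RNA in the results was not tested as a cause, and values with and without these libraries follow for genes of the set. The gene lists further below were read only with these libraries included.

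Among mutant libraries, Nefl and Tubb3 were lower and Map2 and Ncam1 higher where the feeder level was high, while Nefm, Nes, Sox1 and Pax6 overlapped. The share of all genes that separate in this split of 3 against 3 libraries was not counted, so the number of genes is not read as a result. Replicate 1 of both mutant lines is feeder-rich, so feeder level and replicate number cannot be told apart here. Nefl had 12.6 to 18.6 CPM in the 3 feeder-rich mutant libraries and 21.4 to 31.3 CPM in the other 3 mutant libraries, against 8.51 to 16.5 CPM in wild-type libraries. In wild-type libraries the order was mixed. Nefl was highest in WT-1 replicate 3, which had the highest feeder level of the 6. Within WT-2, Nefl was highest, at 12.1 CPM, in replicate 3, which had the lowest feeder level of the 6. No wild-type library reached the feeder level of the feeder-rich libraries. Nefm had 2.18 to 7.76 CPM in feeder-rich and 5.59 to 8.65 CPM in other mutant libraries, against 1.81 to 3.90 CPM in wild-type libraries. With the 3 feeder-rich libraries left out, Nefl and Nefm were higher in all 3 mutant than in all 6 wild-type libraries, as were 3.88% of all tested genes, and 2.49% were lower in all 3. Tubb3 had 22.2 to 46.9 CPM in feeder-rich and 58.2 to 71.2 CPM in other mutant libraries, against 22.8 to 60.4 CPM in wild-type libraries. Map2 had 11.7 to 13.1 CPM in feeder-rich and 7.52 to 9.97 CPM in other mutant libraries, against 4.57 to 10.5 CPM in wild-type libraries. Ncam1 had 31.5 to 39.1 CPM in feeder-rich and 21.2 to 30.7 CPM in other mutant libraries, against 19.0 to 25.9 CPM in wild-type libraries.

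**Figure D4:**
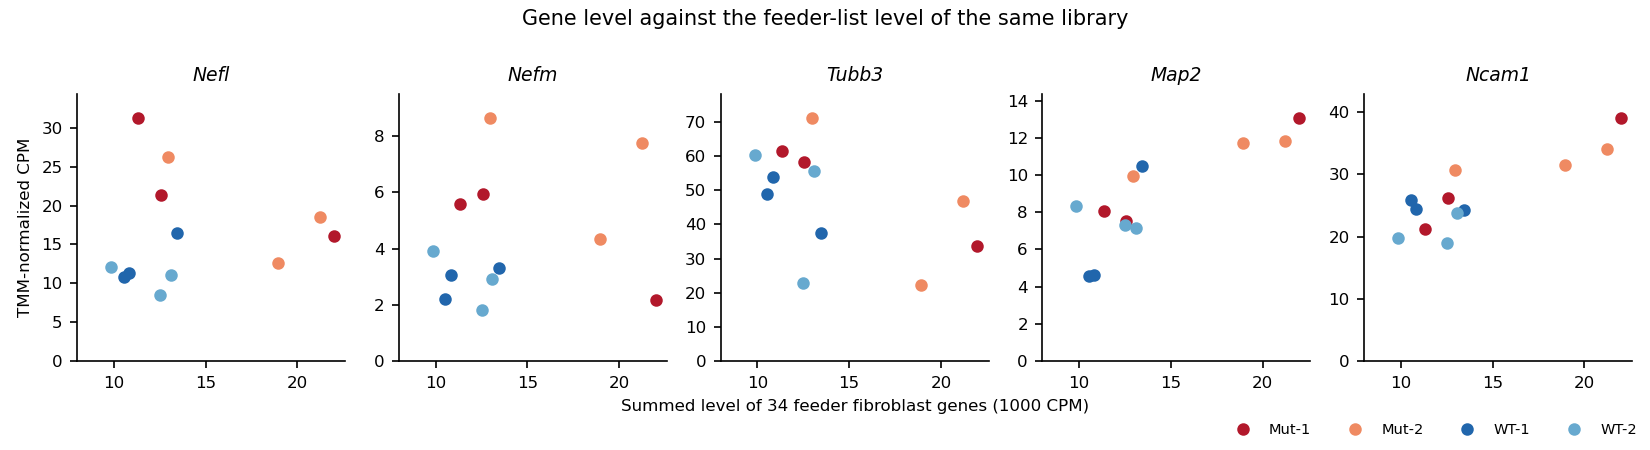
TMM-normalized CPM of 5 genes in each of the 12 libraries against the summed level of 34 feeder fibroblast genes in the same library, in units of 1000 CPM, coloured by line. The 3 points at the right of each panel are mutant libraries, in which Map2 and Ncam1 are at their highest and Nefl is below the other mutant libraries.

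Without the 3 feeder-rich libraries, the log2 fold change on line totals was 1.17 ± 0.193 for Nefl, 1.32 ± 0.298 for Nefm and 0.50 ± 0.146 for Tubb3, and it was 0.32 ± 0.246 for Map2 and 0.24 ± 0.198 for Ncam1. None passed in edgeR (adjusted p 0.442 for Nefl, and higher for the others), and no gene at all was called in that fit, in which 1181 genes had an unadjusted p under 0.05. Leaving these libraries out removes replicate 1 of both mutant lines and keeps replicate 1 of both wild-type lines, the replicate in which Nefl and Nefm were lowest in each of the 4 lines. The part of this imbalance in the larger fold changes was not tested. In limma-voom on 12 libraries with line as a random block, Nefl had a log2 fold change of 0.78 and an adjusted p of 0.0905, with 226 genes called. With the feeder share added as a covariate, Nefl had a log2 fold change of 1.15 ± 0.206 and an adjusted p of 0.0391, and 47 genes were called in all (0.299%). The within-line correlation in that fit was 0.0666, so the 12 libraries counted nearly as independent samples. There Nefm was at 1.28 with an adjusted p of 0.145, Map2 at 0.27 and Ncam1 at 0.17.

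The other genes of neural identity were read from lists, and no list gene outside the set was called in the line totals or in any pair. Among all tested genes, 0% were called on line totals and 0.0181% to 0.925% in the pairs (edgeR). The absence of calls is therefore not read as a result about the lists. Of 7 other intermediate filament genes tested, 2 were higher and 5 lower in mutant lines, with a median log2 fold change of -0.22. Vim, the vimentin gene of mesenchymal and stem cells, averaged 768 ± 125 CPM in mutant lines and 555 ± 32.4 CPM in wild-type lines (adjusted p 0.238). Des, the muscle filament desmin, had 17.8 ± 0.649 CPM in mutant lines and 22.1 ± 1.30 CPM in wild-type lines. Higher fitted levels in the filament family were thus those of Nefl, Nefm, Nes, Vim and the astrocyte gene Gfap, whose log2 fold change was 0.42 at an adjusted p of 0.588.

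Of 23 further neural progenitor genes, 15 were higher and 8 lower in mutant lines, with a median of 0.34. Of these, 3 had an unadjusted p under 0.05 (edgeR), as did 13.1% of all tested genes. Zic2, a zinc finger factor of the neural tube, averaged 63.5 ± 0.958 CPM in mutant lines and 46.1 ± 0.951 CPM in wild-type lines, and Sox21 7.70 ± 1.45 CPM in mutant lines and 4.22 ± 0.460 CPM in wild-type lines. Both lie on chromosome 14, as does Otx2, a forebrain factor with a log2 fold change of 0.51. Olig2, the oligodendrocyte and motor neuron factor on chromosome 16, had 37.2 ± 9.60 CPM in mutant lines and 20.8 ± 9.51 CPM in wild-type lines. Adjusted p-values of these 4 were 0.188, 0.223, 0.389 and 0.312 (edgeR). The 20 progenitor genes off chromosome 14 had a median of 0.21, with 12 higher. By pair of lines, 16 of 22 tested progenitor genes were higher in Mut-1 than in WT-1, with a median of 0.38, and 14 of 22 were higher in Mut-2 than in WT-2, with a median of 0.10.

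Proneural factors, which start neuronal differentiation, were mostly low, and 7 of 15 passed the filter. Ebf1, at 14.8 ± 0.871 CPM in mutant lines and 12.5 ± 0.748 CPM in wild-type lines, was the exception and made up most of the list's summed level. Of the 7, 5 were higher, with a median of 0.18, and the smallest p belonged to Ebf3, with 1.12 ± 0.196 CPM in mutant lines and 0.592 ± 0.0955 CPM in wild-type lines (adjusted p 0.306). Of 18 genes of the neuronal cytoskeleton and adhesion, 13 were higher, with a median of 0.30. An unadjusted p under 0.05 was found for 5 of them, beside 13.1% of all tested genes (edgeR). Mapt, which encodes tau, averaged 114 ± 4.39 CPM in mutant lines and 90.2 ± 5.04 CPM in wild-type lines. Map1b had 61.3 ± 0.827 CPM in mutant lines and 48.6 ± 0.444 CPM in wild-type lines, and the doublecortin-like kinase gene Dclk1 had 7.19 ± 0.336 CPM in mutant lines and 4.57 ± 0.163 CPM in wild-type lines. Cdh2, the N-cadherin gene, had a log2 fold change of 0.42, and the adjusted p-values of the 4 genes lay between 0.246 and 0.327. Of this list 13 of 18 genes were higher in the first pair and 14 of 18 in the second, with medians of 0.22 and 0.33.

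Mature neuron genes did not share a direction. Of 17 tested, 9 were higher and 8 lower, with a median of 0.08. The synaptic vesicle gene Syt1 had 0.325 ± 0.0436 CPM in mutant lines and 0.130 ± 0.0196 CPM in wild-type lines, and the glutamate receptor gene Grin1 had 3.36 ± 1.23 CPM in mutant lines and 5.80 ± 0.649 CPM in wild-type lines. Eno2 and Elavl2 had log2 fold changes of 0.45 and -0.24. Of 11 genes of the REST corepressor complex, which silences neuronal genes in other cells, 4 were higher and 7 lower with a median of -0.05, and Sin3a, at -0.27, had the smallest p. Of 12 neural crest and glial genes 8 were higher, with a median of 0.16, led by the myelin gene Pmp22 at 30.4 ± 0.617 CPM in mutant lines and 18.7 ± 2.09 CPM in wild-type lines (adjusted p 0.173). Of 6 muscle genes 4 were higher, with a median of 0.08, and Myf5, Myf6 and Actc1 had at most 12 counts in all libraries together.

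The stem cell label was checked against 20 pluripotency genes. All were detected and tested, and they summed to between 7194 and 9400 CPM in mutant libraries and to between 7686 and 9112 CPM in wild-type libraries. Of these, 6 were higher and 14 lower in mutant lines, with a median of -0.06. By pair of lines, 6 of 20 were higher in Mut-1 than in WT-1, with a median of -0.14, and 11 of 20 were higher in Mut-2 than in WT-2, with a median of 0.12. Utf1, a chromatin factor of undifferentiated cells, had 117 ± 18.2 CPM in mutant lines and 180 ± 4.25 CPM in wild-type lines (adjusted p 0.177). Lin28a, an RNA-binding repressor of let-7 processing, and Dppa3 had log2 fold changes of -0.31 and -0.63. Klf5, on chromosome 14, did not overlap between the genotypes and was higher in the mutant libraries, with 173 ± 11.2 CPM in mutant lines and 122 ± 1.79 CPM in wild-type lines (adjusted p 0.181, edgeR). It was the 1 gene of the 20 to separate in this way, as 1.33% of all tested genes did. Its log2 fold change of 0.497 was below the upper quartile of chromosome 14 genes, 0.506.

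**Figure D5:**
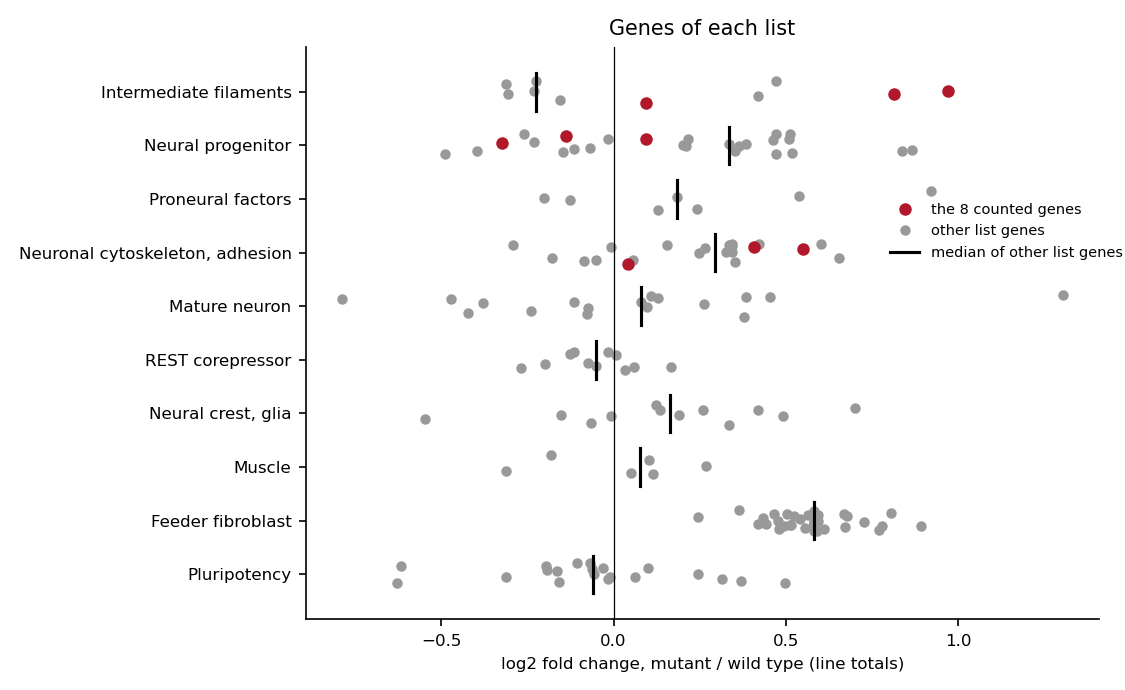
Log2 fold change, mutant over wild type on line totals, of each tested gene in 10 lists, with the 8 counted genes in red and a black bar at the median of the other genes of a list. The feeder fibroblast genes, with a median of 0.58, all lie above 0, while most neural lists spread to both sides of 0.

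The libraries in which a gene was high were also compared between genes, by Pearson's correlation of log2(CPM + 0.5) over 12 libraries, which share 4 lines and their culture. Nefl and Nefm had r = 0.776, and r = 0.825 for deviations from the line means, so that their counts also varied together within lines. Reads from the overlap of Nefm-202 with exon 1 of Nefl cannot be assigned with certainty. Their part in this correlation was not tested. Tubb3 had r = 0.719 with Nefl and r = 0.820 with Nefm for these deviations, while Nes had r = -0.777 and r = -0.576. Nefl was the lowest in replicate 1 of each of the 4 lines, as were Nefm in all 4 lines and Tubb3 in Mut-1, Mut-2 and WT-2.

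Among 12195 genes, those most like Nefl were Lgals3 (r = 0.948), Tpt1 (0.942) and Rcbtb2 (0.938), all on chromosome 14. For Nefm they were Elp3 (r = 0.941) and Xpo4 (0.923), on chromosome 14, and Napa (0.927), on chromosome 7. Nes was most like Plod2 (r = 0.912), Sox1 like Arhgap21 (0.924) and Tubb3 like Nop56 (0.956). Map2 was most like Sirt2 (r = 0.969) and Ncam1 like Zfhx4 (0.969). None of these 5 lies on chromosome 14.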

How the data were processed

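The authors deposited whole-number counts of reads per gene, 1 column per library, not normalized. Per the submitters' processing notes, the tools were HISAT2 2.1.0, HTSeq 0.6.0, Bowtie2 2.2.3 and bcl2fastq and the build was GRCm38. What each tool did, which annotation was counted and whether strand was used is not given in the sources used here. Positions came from GENCODE M21 on GRCm38 by symbol, and 2078 of 31641 symbols found no match. A comparison of the neurofilament coding sequences is not reported here.

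Counts of the 3 libraries of a line were summed, and mutant lines were compared with wild-type lines with edgeR 4.0.16 under R 4.3.3 (quasi-likelihood test, TMM, filterByExpr, Benjamini-Hochberg over all genes tested, threshold 0.05). Pairs of lines came from 1 fit of the 12 libraries with 4 line groups. An SE is the log2 fold change divided by the square root of its F statistic. DESeq2 1.42.0, limma 3.58.1, other scalings and filters, and leaving out lines and libraries were alternatives. The scripts were tested on simulated counts. With 2 lines against 2, an exact permutation test cannot go below 0.333, so the tests rest on the spread that edgeR shares between genes. Nothing in the labels says that the libraries of a line came from separate cultures, so spread among them may be technical.

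Members, the 10 gene lists and tests were chosen with earlier results of these data known. From each list, up to 4 other genes with the smallest p were named. The 3 genes most like a gene were those of highest correlation among genes of a mean of at least 2 CPM. Chromosome 14 genes needed a mean of at least 5 CPM, and 5 tested neighbours per side were named. Feeder-rich libraries are the mutant libraries whose share of counts on the feeder list exceeded that of every wild-type library.

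The main fit of the pairs of lines used no block, and a block on the library number was an alternative. Library numbers were read as pairing libraries only where same-number libraries deviated together in all 3 numbers (correlation over 0.1). This rule was met for Mut-2 with WT-2 (0.628, 0.336 and 0.106, the last only just above the cutoff), Mut-2 with Mut-1 and WT-2 with WT-1. It was not met for Mut-1 with WT-1.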

Additional observations from a re-analysis of the deposited data

Results flagged for a closer look

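Pax6 in WT-2 replicate 3 stood at 1.59 CPM, far from the other wild-type libraries, with a gap to the nearest library of 0.808 of the range of the 6, above the critical value of 0.625 for 6 samples. It was the 1 value that stood apart in this way among 18 groups of 6 libraries, where chance gives about 1 in 20.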

How the results depend on the processing

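Of 694 values of single genes under alternative settings, 644 kept their direction and their side of the threshold, 11 passed it in the same direction, and 39 changed sign without passing it. In mutant against wild-type lines, where none of the 8 genes was called, DESeq2 called 2 (Nefl and Nefm). The line number as a replicate block called 1 (Nefl, adjusted p 0.0490), although the numbers do not pair the lines (correlation -0.067), and limma-voom with the feeder share as a covariate called 1 (Nefl). Over these alternatives the adjusted p of Nefl ran from 0.00510 to 0.614. Genes called in all were 0 in the main setting and between 0 and 359 under the alternatives, with 162 under that block. In Mut-1 against WT-1, 1 gene (Nefl) was called with the library number as a replicate block (adjusted p 0.0465, 100 of 16533 genes called). The library numbers did not meet the pairing rule for this pair (correlations -0.108, 0.178 and 0.102). With no filter on low counts 1 (Nefl) was called (543 of 31641 genes). With WT-1 replicates 1 and 2 summed, Nefl had a log2 fold change of 0.73 at an adjusted p of 0.936 (edgeR). In Mut-2 against WT-2, the replicate block called 2 (Nefl and Nefm; 328 of 16533 genes) and no filter 3 (Nefl, Nefm and Ncam1; 966 of 31641 genes). The cause was not tested. All genes called in the pairs ranged from 15 to 543 around 54 in Mut-1 against WT-1, and from 1 to 966 around 153 in Mut-2 against WT-2. For Mut-2 against Mut-1 the range was 1 to 270 around 43, and for WT-2 against WT-1 it was 0 to 201 around 3. Without the feeder-rich libraries, 2 genes (Nefl and Nefm) did not overlap between genotypes, as 3.88% of all tested genes did not, being higher.

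Leaving out 1 line or library turned the sign of genes with small changes. In mutant against wild-type lines the log2 fold change then ran from -0.016 to 0.23 for Nes, -0.75 to 0.50 for Pax6, -0.26 to 0.00020 for Sox1 and -0.14 to 0.23 for Tubb3. In Mut-1 against WT-1 it ran from -0.074 to 0.37 for Ncam1, -0.49 to 0.083 for Sox1 and -0.047 to 0.35 for Tubb3, and in Mut-2 against WT-2 from -0.25 to 0.0054 for Nes, -0.32 to 0.17 for Sox1 and -0.42 to 0.35 for Tubb3. In Mut-2 against Mut-1 it ran from -0.018 to 0.43 for Ncam1, -0.56 to 0.039 for Nefl, -0.035 to 0.49 for Sox1 and -0.57 to 0.21 for Tubb3. In WT-2 against WT-1 it ran from -0.28 to 0.24 for Nefm, -0.15 to 0.37 for Sox1 and -0.26 to 0.30 for Tubb3. Nefl and Nefm stayed above 0 in every alternative of the 3 comparisons of mutant with wild type, at 0.66 to 1.17 and 0.63 to 1.32 on line totals. Without the feeder-rich libraries the sign turned for Nes on line totals (-0.018), Ncam1 in Mut-1 against WT-1 (-0.072) and Tubb3 in Mut-2 against Mut-1 (0.24). It turned for Tubb3 in Mut-2 against WT-2 under median-ratio scaling (-0.00020), and in WT-2 against WT-1 with WT-1 replicates 1 and 2 summed (0.050), an alternative chosen after seeing the data. Depth limits Pax6 most, at 3 to 24 counts per library.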
